A study of Saccharomyces cerevisiae with 4 samples.

Results

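The genes described here are 53 genes of amino acid biosynthesis in budding yeast (*Saccharomyces cerevisiae*), taken from 6549 listed entries. They were chosen by gene symbol from a fixed list, with common strain marker genes left out, and the rule uses no measured value. Each symbol matched 1 entry in each of the 4 libraries, and all 53 genes passed the filter on low values (averaged over the libraries, 10 RPKM or more), as did 5552 of all entries. They were grouped into 9 pathways: histidine (4 genes), arginine (5), branched chain amino acids (10), lysine (6), the aromatic amino acids including tryptophan (9), threonine and its aspartate-derived precursors (5), serine (4), ammonium assimilation and the amides glutamine and asparagine (5), and sulfate assimilation with methionine (5).

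Yeast makes every amino acid of its proteins when the medium supplies ammonium and carbon, each through a short chain of enzymes whose first step is often inhibited by the end product. The genes of many of these chains are induced together by the transcription factor Gcn4 when any amino acid runs short, a response called general amino acid control. *GCN4* is itself controlled at translation, by short upstream ORFs that hold ribosomes back from the main ORF until uncharged tRNA activates the kinase Gcn2. In sporulation medium, which withholds a nitrogen source, protein made during meiosis draws largely on amino acids recycled from existing protein.

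The study compared *dbp1Δ::kanMX6* cells, in which a Geneticin resistance cassette replaces the ORF of *DBP1*, with wild-type cells, to ask how loss of this RNA helicase alters gene expression in meiosis and what the cassette does to the neighboring gene *MRP51*. The paper traces the mutant phenotypes it examined to reduced Mrp51 and not to loss of Dbp1. In these libraries both changes occur in the same cells and cannot be told apart. Both strains are diploids of the SK1 background, which is known to sporulate efficiently, and both carry ho::LYS2, lys2, ura3 and trp1::hisG. They also carry further marker alleles in amino acid synthesis, which are not listed here. Genes of this metabolism, among them a gene of tryptophan synthesis, are thus disrupted in either genotype. Cells were harvested after 4 h in sporulation medium, here potassium acetate with raffinose and no listed amino acid. They were first treated for 1 min with 100 µM cycloheximide, a drug that arrests ribosomes on mRNA. That concentration is from the labels, whereas the methods of the paper give 100 µg/ml. Ribosome footprints (FP), the mRNA pieces protected by ribosomes, and mRNA fragments were each sequenced in 1 library per genotype. Levels are in RPKM, the reads of an ORF scaled by its length and by all mapped reads, and translation efficiency (TE) is FP RPKM divided by mRNA RPKM. There were no replicates, so no difference between genotypes could be set against a replicate spread and none was tested. "Higher" and "lower" describe these libraries, and each interval in parentheses is a 95% interval for counting error alone.

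The libraries held an inferred 2220000 to 4770000 reads, and each of the 53 genes was covered by at least 36 inferred reads in every library. These depths are approximate, since inferred reads summed over the entries with a gene length came to slightly more in each library (2237230 to 4880727). *DBP1* itself was at 6.9 FP RPKM and 2.9 mRNA RPKM in *dbp1Δ::kanMX6* cells, against 435.2 FP RPKM and 131.5 mRNA RPKM in wild-type cells, as the labels require. *MRP51* had 5.6 FP RPKM and 173.8 mRNA RPKM in *dbp1Δ::kanMX6* cells, against 47.0 FP RPKM and 96.8 mRNA RPKM in wild-type cells. The median entry was 1.27-fold higher in footprints and 1.29-fold higher in mRNA in *dbp1Δ::kanMX6* cells (0.35 and 0.37 on the log2 scale), while its TE change was -0.07, so changes are also given relative to the median entry. Markers of meiotic stage differed too. All 8 early meiotic genes listed were higher in both footprints and mRNA in *dbp1Δ::kanMX6* cells, as were 68.7% and 71.3% of all entries. Relative to the median entry, 6 were higher and 2 lower in each assay. Their median log2 footprint change was 0.51, or 0.17 above the median entry. Levels were 168.5 to 2213.4 FP RPKM in *dbp1Δ::kanMX6* cells and 83.1 to 1776.1 in wild-type cells. All 8 middle meiotic genes listed were lower in both footprints and mRNA, with a median log2 footprint change of -1.66. Their levels were 3.1 to 3098.4 FP RPKM in *dbp1Δ::kanMX6* cells and 112.7 to 5871.2 in wild-type cells, so none was at 0. In bulk libraries, fewer cells that express a gene and less RNA per cell cannot be told apart. The part of meiotic stage in the differences below was not tested.

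By their medians, the 53 genes were somewhat higher in *dbp1Δ::kanMX6* cells in both footprints and mRNA, by little more than the median entry. Their median log2 footprint change was 0.57, or 0.22 above the median entry, and their median log2 mRNA change was 0.47, or 0.10 above it. Footprints were higher for 39 genes and lower for 14 in *dbp1Δ::kanMX6* cells (68.7% of all entries were higher). mRNA was higher for 42 and lower for 11 (71.3% of all entries were higher). Relative to the median entry the split was 34 against 19 for footprints and 35 against 18 for mRNA. The genes took up 0.953% of the inferred footprint reads in *dbp1Δ::kanMX6* cells (Wilson interval 0.942 to 0.963) and 0.791% in wild-type cells (0.783 to 0.800). Of the mRNA reads they took up 1.06% (1.05 to 1.07) in *dbp1Δ::kanMX6* cells and 0.927% (0.914 to 0.939) in wild-type cells. In neither assay did the share differ by as much as the median entry, which was 1.27-fold higher in footprints and 1.29-fold in mRNA. Pooled by reads, the group thus stood less far above wild type than the median entry did.

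In each measure most of the genes stood less than 2-fold apart between genotypes, and in mRNA their share past 2-fold was below that of all entries. Footprints were at least 2-fold higher for 10 genes, 18.9% of the 53 beside 15.1% of all entries, and at least 2-fold lower for 3, 5.66% beside 8.23%. Relative to the median entry the counts were 5 higher and 6 lower, beside 6.36% and 12.8% of all entries. For mRNA, 3 genes were at least 2-fold higher (5.66% beside 16.6% of all entries) and 0 lower (beside 4.18%), whereas relative to the median entry 0 were higher (beside 7.1%) and 3 lower (beside 8.43%). The 3 genes higher in mRNA were *ARG8*, *LEU9* and *CPA1*, and the 3 lower relative to the median entry were *LYS1*, *HIS4* and *SER33*. TE was at least 2-fold higher for 5 genes, 9.43% beside 3.43% of all entries, and lower for 3, 5.66% beside 6.07%. Those counts stayed at 5 and 3 relative to the median entry, beside 3.91% and 5.34% of all entries. The TE interval lay above 1 for 14 genes and below 1 for 15, a count that was not made over all entries.

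**Figure D1:**
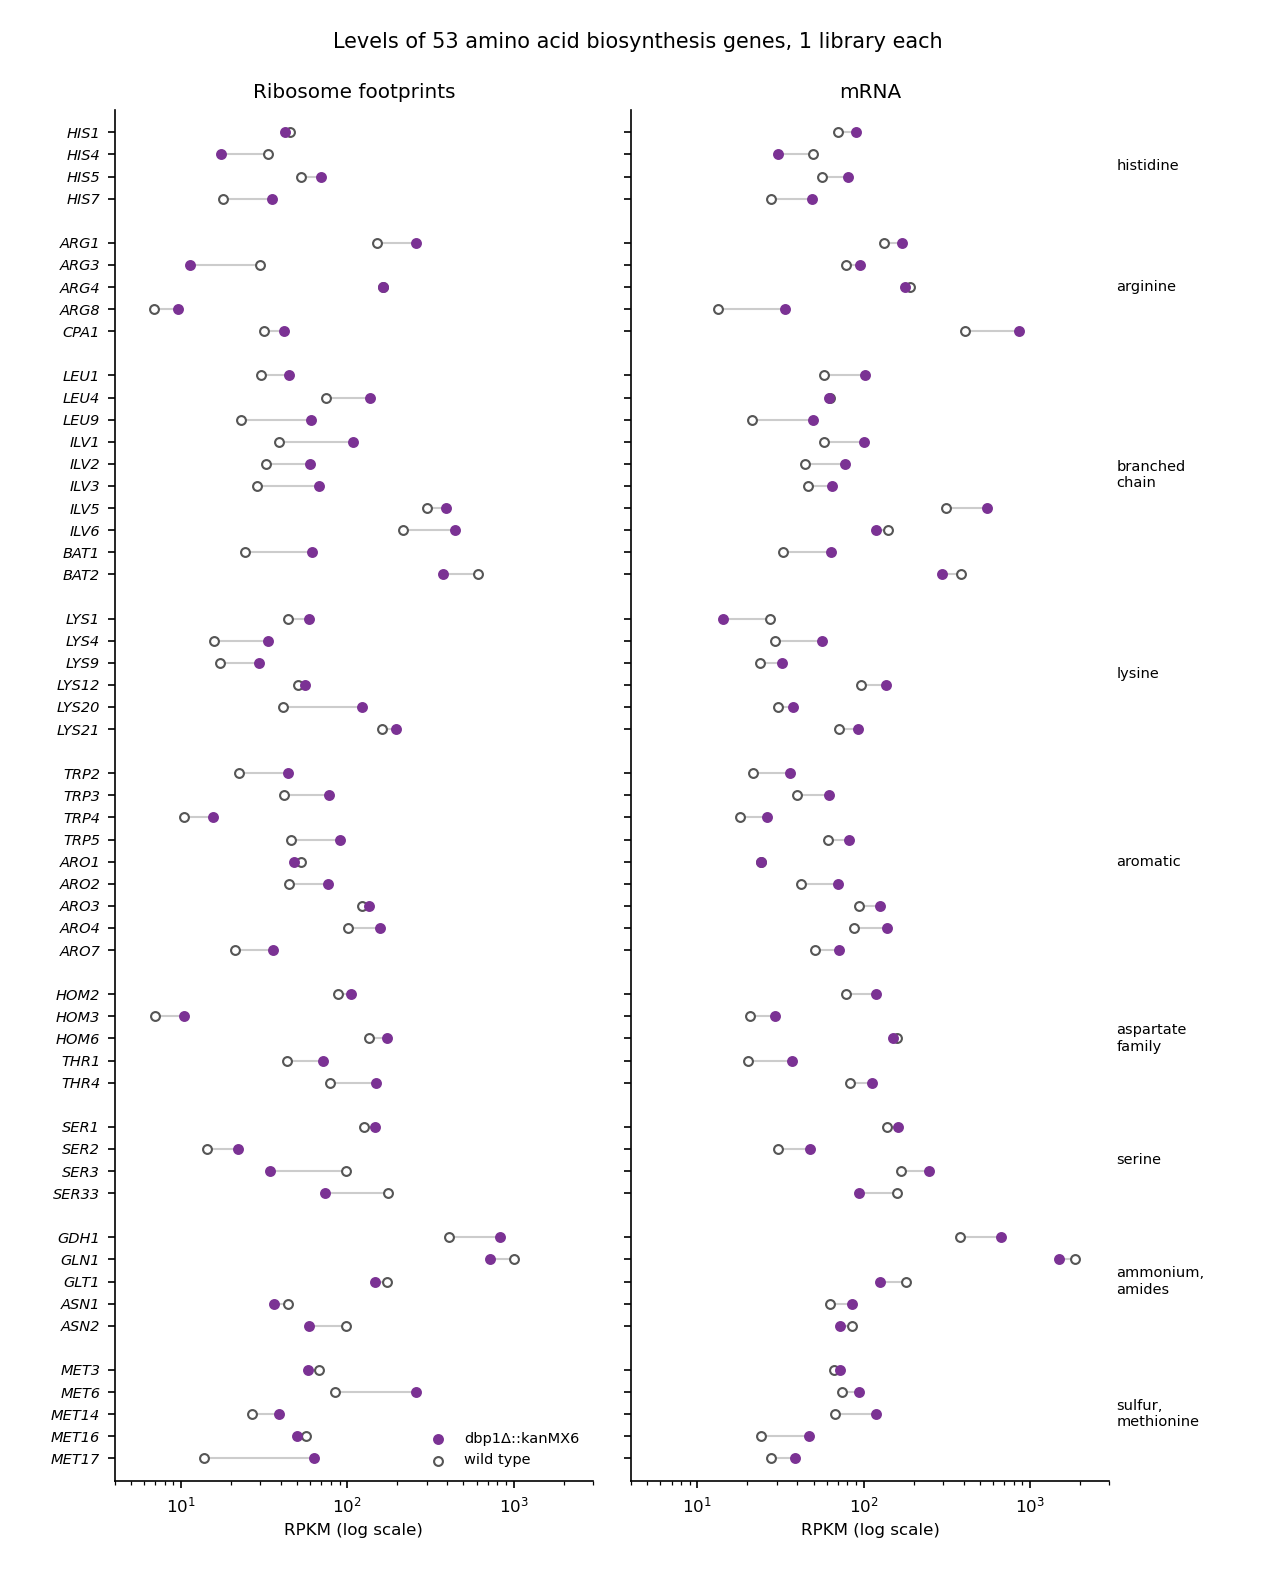
RPKM of the 53 genes by pathway on a log axis, footprints left and mRNA right, with 1 filled point for the dbp1Δ::kanMX6 library and 1 open point for the wild-type library per gene. Levels span 6.9 to 1008.6 FP RPKM and 13.4 to 1862.1 mRNA RPKM, *GLN1* has the highest mRNA in both genotypes, and most joined pairs are short beside that span.

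The sulfur and methionine genes included the 2 largest footprint increases of the 53 genes, both in the last steps of the pathway. Sulfate is activated by *MET3* and *MET14*, reduced by *MET16* and later enzymes, built into homocysteine by *MET17*, and methylated to methionine by *MET6*. *MET17* (YLR303W), the O-acetylhomoserine sulfhydrylase, had 63.3 FP RPKM and 38.7 mRNA RPKM in *dbp1Δ::kanMX6* cells, against 13.8 FP RPKM and 27.9 mRNA RPKM in wild-type cells. Its footprints were 4.59-fold higher (3.53 to 5.96), its mRNA 1.39-fold (1.07 to 1.79) and its TE 3.31-fold (2.32 to 4.72), which ranked 42nd among 5453 footprint changes and 32nd among 5452 TE changes. The gene YLR302C overlaps *MET17* in the reference gene table, and its entry held at most 1.7 RPKM in any library. *MET6* (YER091C), the cobalamin-independent methionine synthase, had 257.6 FP RPKM and 94.2 mRNA RPKM in *dbp1Δ::kanMX6* cells, against 84.3 and 74.6 in wild-type cells. For *MET6* the footprint difference was 3.06-fold (2.81 to 3.32) with an mRNA difference of 1.26-fold (1.12 to 1.42), the mRNA value falling below the median entry's shift.

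The early, sulfate-handling steps did not share that pattern. *MET16* (YPR167C), the PAPS reductase, had 49.8 FP RPKM and 47.0 mRNA RPKM in *dbp1Δ::kanMX6* cells, against 56.4 FP RPKM and 24.0 mRNA RPKM in wild-type cells. mRNA was 1.96-fold higher (1.39 to 2.80) with footprints at a ratio of 0.883 (0.702 to 1.12), so that TE was 2.22-fold lower (1.48 to 3.33). *MET3* (YJR010W), the ATP sulfurylase, was close to level, with 58.2 FP RPKM and 72.4 mRNA RPKM in *dbp1Δ::kanMX6* cells and 67.6 and 66.1 in wild-type cells. *MET14*, the APS kinase, had a footprint ratio of 1.45 and an mRNA ratio of 1.77. The 5 genes together took 0.0815% of footprint reads in *dbp1Δ::kanMX6* cells and 0.0372% in wild-type cells, the largest ratio of such shares among the 9 pathways.

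The branched chain pathway had the highest median footprint change of the 9 pathways. Isoleucine and valine are made by shared enzymes, acetolactate synthase (*ILV2* with its regulatory subunit *ILV6*), the reductoisomerase *ILV5* and the dehydratase *ILV3*, after threonine deaminase (*ILV1*) supplies the isoleucine precursor, and leucine branches off through *LEU4*, *LEU9* and *LEU1*. Footprints of 9 of the 10 genes were higher in *dbp1Δ::kanMX6* cells, also relative to the median entry. At least 2-fold higher were 5 and lower 0, beside 15.1% and 8.23% of all entries, and relative to the median entry 2 were higher and 1 lower, beside 6.36% and 12.8%. The median log2 change was 0.96 for footprints, 0.79 for mRNA and 0.29 for TE. *ILV1* (YER086W) had 107.7 FP RPKM and 99.9 mRNA RPKM in *dbp1Δ::kanMX6* cells, against 38.9 and 58.1 in wild-type cells, a 2.77-fold difference in footprints (2.40 to 3.20) and 1.72-fold in mRNA. *ILV3* (YJR016C) had 67.7 FP RPKM and 64.8 mRNA RPKM in *dbp1Δ::kanMX6* cells, against 28.8 and 46.0 in wild-type cells, or 2.35-fold in footprints (1.98 to 2.80) and 1.41-fold in mRNA (1.18 to 1.67). For both, the footprint difference exceeded the mRNA difference, with TE ratios of 1.61 (1.31 to 1.98) and 1.67 (1.32 to 2.12).

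*ILV6* (YCL009C), which makes acetolactate synthase sensitive to valine, departed from its catalytic partner. It had 447.0 FP RPKM and 119.0 mRNA RPKM in *dbp1Δ::kanMX6* cells, against 217.2 FP RPKM and 141.1 mRNA RPKM in wild-type cells. Footprints were thus 2.06-fold higher (1.89 to 2.25) while mRNA was at a ratio of 0.843 (0.730 to 0.978), and TE was 3.76 in *dbp1Δ::kanMX6* cells and 1.54 in wild-type cells. *ILV2*, the catalytic subunit, differed alike in both assays, with a footprint ratio of 1.83 and an mRNA ratio of 1.74. *ILV5* (YLR355C), second to *BAT2* in FP RPKM among these enzymes in wild type, had 392.7 FP RPKM and 551.8 mRNA RPKM in *dbp1Δ::kanMX6* cells, against 302.4 and 311.2 in wild-type cells. It showed the opposite arrangement to *ILV6*, since its mRNA was 1.77-fold higher (1.64 to 1.92), its footprints 1.30-fold (1.21 to 1.40), and its TE ratio 0.732 (0.659 to 0.813). *LEU1*, the isopropylmalate isomerase, had a footprint ratio of 1.48 and an mRNA ratio of 1.76.

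Lysine is made through the alpha-aminoadipate route, which starts with homocitrate synthase and ends with saccharopine dehydrogenase. All 6 genes had more footprints in *dbp1Δ::kanMX6* cells, but *LYS12* and *LYS21* fell below the median entry, and the median log2 footprint change was 0.60. *LYS20* (YDL182W), a homocitrate synthase, had 123.1 FP RPKM and 37.5 mRNA RPKM in *dbp1Δ::kanMX6* cells, against 41.3 and 30.5 in wild-type cells. The difference was 2.98-fold in footprints (2.54 to 3.51) and 1.23-fold in mRNA (0.957 to 1.59, less than the median entry), and TE was 3.28 in *dbp1Δ::kanMX6* cells against 1.35 in wild-type cells. *LYS4* (YDR234W), the homoaconitase, was higher in both assays, with 33.3 FP RPKM and 56.5 mRNA RPKM in *dbp1Δ::kanMX6* cells and 15.8 and 29.5 in wild-type cells, ratios of 2.11 (1.70 to 2.63) and 1.92 (1.59 to 2.33). *LYS1* (YIR034C), the saccharopine dehydrogenase of the last step, had 58.8 FP RPKM and 14.3 mRNA RPKM in *dbp1Δ::kanMX6* cells, against 44.0 FP RPKM and 27.2 mRNA RPKM in wild-type cells. Its mRNA was the lowest in ratio of the 53 genes, 1.90-fold lower (1.35 to 2.66), while its footprints were 1.34-fold higher (1.10 to 1.63), so TE was 2.54-fold higher (1.74 to 3.71). *LYS12* (YIL094C), the homoisocitrate dehydrogenase, had 55.5 FP RPKM and 137.3 mRNA RPKM in *dbp1Δ::kanMX6* cells and 50.5 and 97.0 in wild-type cells.

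**Figure D2:**
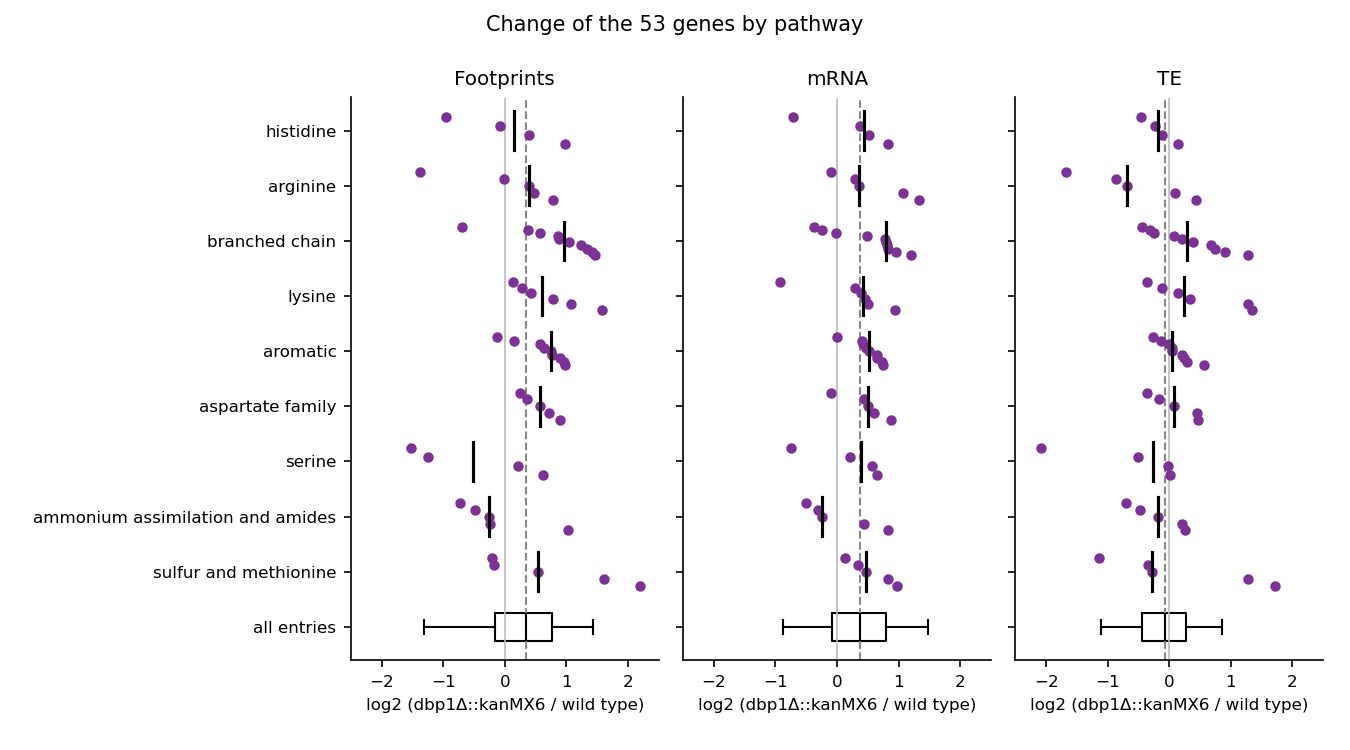
log2 of the dbp1Δ::kanMX6 to wild-type ratio of footprints, mRNA and TE, with 1 point per gene by pathway, a black bar at each pathway's median, and a box for all entries (quartiles, whiskers at the 5th and 95th percentiles); the solid line is no change and the dashed line the median entry. The footprint median is highest for the branched chain genes, at 0.96, and below 0 for the serine genes, at -0.51, and the ammonium and amide genes, at -0.26.

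Both isozymes of the first step of serine synthesis had fewer footprints in *dbp1Δ::kanMX6* cells, while the other 2 serine genes had more. Serine is drawn from glycolysis by 3-phosphoglycerate dehydrogenase (*SER3* and *SER33*), the transaminase *SER1* and the phosphatase *SER2*. *SER3* (YER081W) had 34.3 FP RPKM and 245.9 mRNA RPKM in *dbp1Δ::kanMX6* cells, against 98.2 FP RPKM and 166.7 mRNA RPKM in wild-type cells. Footprints were 2.86-fold lower (2.39 to 3.43) although mRNA was 1.48-fold higher (1.34 to 1.63), and TE was 0.139 in *dbp1Δ::kanMX6* cells against 0.589 in wild-type cells, 4.22-fold lower (3.45 to 5.17). That TE decrease ranked 50th of 5452 entries and was the largest among the 53 genes. *SRG1*, a noncoding RNA known to be transcribed across the *SER3* promoter, overlaps *SER3* in the reference gene table, so some mRNA reads of the *SER3* entry may belong to it. Its isozyme *SER33* (YIL074C) was lower in both assays, with 73.8 FP RPKM and 94.3 mRNA RPKM in *dbp1Δ::kanMX6* cells and 175.4 and 157.7 in wild-type cells, 2.38-fold (2.10 to 2.70) and 1.67-fold (1.49 to 1.89) lower. The remaining 2 genes lay closer to the median entry. *SER1* (YOR184W) had 147.0 FP RPKM and 160.2 mRNA RPKM in *dbp1Δ::kanMX6* cells, against 126.1 and 138.0 in wild-type cells, and *SER2* (YGR208W) had 22.0 and 47.5 against 14.3 and 30.4.

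In ammonium assimilation and amide synthesis, 4 of 5 genes had fewer footprints in *dbp1Δ::kanMX6* cells. Ammonium enters amino acids through the glutamate dehydrogenase *GDH1*, glutamine synthetase (*GLN1*) and glutamate synthase (*GLT1*), and asparagine is made by *ASN1* and *ASN2*. *GDH1* (YOR375C) had 834.2 FP RPKM and 674.2 mRNA RPKM in *dbp1Δ::kanMX6* cells, against 407.2 and 380.9 in wild-type cells, 2.05-fold (1.94 to 2.16) and 1.77-fold (1.66 to 1.89) higher. Footprints of the other 4 genes were lower, although the *ASN1* interval included no difference (0.698 to 1.001). *ASN1* mRNA was 1.36-fold higher (1.17 to 1.58). *GLN1* (YPR035W), the most abundant of the 53 in mRNA, had 720.1 FP RPKM and 1499.9 mRNA RPKM in *dbp1Δ::kanMX6* cells, against 1008.6 and 1862.1 in wild-type cells, 1.40-fold (1.33 to 1.47) and 1.24-fold (1.20 to 1.29) lower. *GLT1* (YDL171C) had 147.2 FP RPKM and 125.9 mRNA RPKM in *dbp1Δ::kanMX6* cells, against 174.4 and 179.2 in wild-type cells, with its mRNA 1.42-fold lower (1.35 to 1.50). The enzymes that carry nitrogen on to glutamine and from it to glutamate thus stood below wild type in both assays, and *GDH1* above it.

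Among the arginine genes, mRNA and footprints differed unequally for several members. Arginine is built from glutamate through ornithine (*ARG8*) and then citrulline (*ARG3*), which takes carbamoyl phosphate made with *CPA1*, and *ARG1* and *ARG4* finish the chain. *ARG3* (YJL088W), the ornithine carbamoyltransferase, had 11.4 FP RPKM and 95.7 mRNA RPKM in *dbp1Δ::kanMX6* cells, against 29.8 FP RPKM and 78.2 mRNA RPKM in wild-type cells. Its footprints were 2.61-fold lower (1.80 to 3.86), with mRNA 1.22-fold higher (1.02 to 1.46, below the median entry), and its TE 3.20-fold lower (2.14 to 4.78). *ARG8* (YOL140W), the acetylornithine aminotransferase, had 9.6 FP RPKM and 33.9 mRNA RPKM in *dbp1Δ::kanMX6* cells, against 6.9 and 13.4 in wild-type cells. mRNA of *ARG8* was 2.53-fold higher (1.78 to 3.67), the largest mRNA ratio of the 53 genes, while the footprint interval included no difference (0.870 to 2.26).

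*CPA1* (YOR303W) encodes the small subunit of the arginine-specific carbamoyl phosphate synthetase, and a peptide encoded by an upstream ORF in its mRNA is known to stall ribosomes when arginine is plentiful. *CPA1* had 41.7 FP RPKM and 865.2 mRNA RPKM in *dbp1Δ::kanMX6* cells, against 31.7 FP RPKM and 409.9 mRNA RPKM in wild-type cells. Its TE, 0.0482 in *dbp1Δ::kanMX6* cells and 0.0773 in wild-type cells, was the lowest of the 53 genes in each genotype, and in wild type ranked 110th from the bottom of 5452 entries. mRNA was 2.11-fold higher (1.98 to 2.25) and footprints 1.32-fold higher (1.05 to 1.64). The enzymes of the last steps differed less in mRNA than *CPA1* did. *ARG1* (YOL058W), argininosuccinate synthetase, had 260.3 FP RPKM and 170.1 mRNA RPKM in *dbp1Δ::kanMX6* cells, against 150.4 and 132.7 in wild-type cells, and *ARG4* (YHR018C), argininosuccinate lyase, was level with 163.3 and 177.4 against 164.1 and 189.7. *ARG1* footprints were 1.73-fold higher (1.58 to 1.90), but its 1.28-fold mRNA difference (1.14 to 1.45) fell just below the median entry.

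Histidine genes split within a pathway of 4. *HIS7* (YBR248C), the imidazole glycerol phosphate synthase, had 35.1 FP RPKM and 49.1 mRNA RPKM in *dbp1Δ::kanMX6* cells, against 17.9 and 27.6 in wild-type cells, ratios of 1.96 (1.56 to 2.49) and 1.78 (1.42 to 2.23). *HIS4* (YCL030C), a multifunctional enzyme and a classical target of Gcn4, had 17.3 FP RPKM and 30.4 mRNA RPKM in *dbp1Δ::kanMX6* cells, against 33.4 and 49.9 in wild-type cells. It was 1.93-fold lower in footprints (1.58 to 2.38) and 1.64-fold lower in mRNA (1.39 to 1.93), and its TE interval included no difference (0.658 to 1.10). *HIS1* (YER055C), which catalyzes the first step, had 42.4 FP RPKM and 90.5 mRNA RPKM in *dbp1Δ::kanMX6* cells, against 45.0 and 69.9 in wild-type cells. *HIS5*, the aminotransferase, had a footprint ratio of 1.32 and an mRNA ratio of 1.43, both near the median entry.

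The aromatic and threonine pathways had the narrowest ranges of footprint ratios among the 9 pathways, 0.911 to 1.98 and 1.19 to 1.87. In the aromatic pathway 8 of 9 genes were higher in footprints and 9 of 9 in mRNA, beside 68.7% and 71.3% of all entries. As in the histidine pathway, 0 passed 2-fold in any measure, beside 15.1% higher and 8.23% lower of all entries in footprints. Aromatic TE ratios stayed between 0.837 and 1.48. Chorismate is made by way of *ARO3* or *ARO4*, the pentafunctional *ARO1*, and *ARO2*, and is turned to tryptophan by *TRP2* to *TRP5* or toward phenylalanine and tyrosine by *ARO7*. *TRP5* (YGL026C), the tryptophan synthase, had 90.3 FP RPKM and 81.4 mRNA RPKM in *dbp1Δ::kanMX6* cells, against 45.6 and 60.7 in wild-type cells, 1.98-fold in footprints (1.74 to 2.25). *TRP2* (YER090W), anthranilate synthase, had 43.9 FP RPKM and 36.2 mRNA RPKM in *dbp1Δ::kanMX6* cells, against 22.5 and 21.5 in wild-type cells. *ARO1* (YDR127W) stayed near level, below the median entry in both assays, with 48.0 FP RPKM and 24.3 mRNA RPKM in *dbp1Δ::kanMX6* cells and 52.7 and 24.2 in wild-type cells. Footprints of *ARO3* also lay below the median entry, at a ratio of 1.11 (0.983 to 1.26). Footprint ratios of *TRP3*, *TRP4*, *ARO2* and *ARO7* ran from 1.49 to 1.86 and their mRNA ratios from 1.38 to 1.66.

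Threonine is derived from aspartate by *HOM3*, *HOM2*, *HOM6*, *THR1* and *THR4*, and the first part of this route also serves methionine. All 5 genes had more footprints in *dbp1Δ::kanMX6* cells, although *HOM2* fell below the median entry, and 0 passed 2-fold in any measure. Of all entries, 15.1% were at least 2-fold higher and 8.23% lower in footprints. *THR4* (YCR053W), threonine synthase, had 148.1 FP RPKM and 111.6 mRNA RPKM in *dbp1Δ::kanMX6* cells, against 79.1 and 82.3 in wild-type cells, 1.87-fold in footprints (1.67 to 2.10). *THR1* (YHR025W), homoserine kinase, had 71.4 FP RPKM and 37.1 mRNA RPKM in *dbp1Δ::kanMX6* cells, against 43.3 and 20.1 in wild-type cells, 1.85-fold in mRNA (1.34 to 2.58). The enzymes above the branch differed less in footprints. *HOM2* (YDR158W), the semialdehyde dehydrogenase, had 105.1 FP RPKM and 119.0 mRNA RPKM in *dbp1Δ::kanMX6* cells and 88.6 and 78.2 in wild-type cells, and *HOM6* (YJR139C), homoserine dehydrogenase, had 174.2 and 149.6 against 135.4 and 159.7. *HOM3*, the aspartate kinase, had a footprint ratio of 1.49 (0.980 to 2.24).

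**Figure D3:**
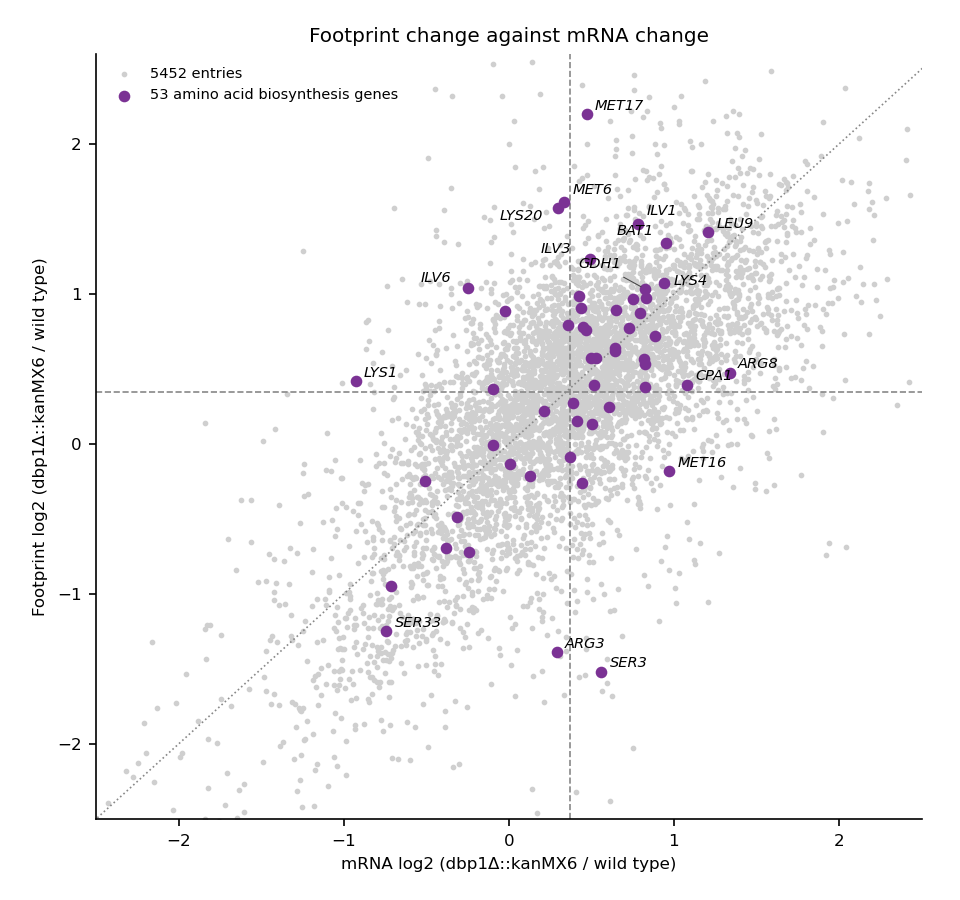
Footprint log2 change against mRNA log2 change (dbp1Δ::kanMX6 over wild type) for the 53 genes (purple) and 5452 entries (gray; entries beyond the axis limits are not drawn), with the median entry dashed, equal change dotted and the 17 genes past 2-fold in any measure named. *MET17*, *MET6* and *LYS20* lie far above the dotted line, and *SER3* and *ARG3* far below it.

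The correlation of footprint and mRNA changes was lower over these genes than over the entries at large. Over the 53 genes Pearson's r was 0.472 and Spearman's rho 0.423, against 0.714 and 0.666 over 5452 entries, a description over genes that share the same libraries. The mRNA changes of the 53 genes also covered a narrower range, with 5.66% at least 2-fold higher and 0% lower, beside 16.6% and 4.18% of all entries. A narrower range lowers a correlation by itself, and its part in this difference was not tested. Both assays were higher for 35 genes and lower for 7, footprints were lower with mRNA higher for 7, and footprints were higher with mRNA lower for 4. No gene was at least 1.5-fold higher in one assay and at least 1.5-fold lower in the other. In all, 17 of the 53 genes passed 2-fold in footprints, mRNA or TE. The share of all entries passing in any of the measures was not computed, so this count has no comparison.

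In both genotypes the 53 genes were translated somewhat better than the median entry. Their median TE was 0.921 in *dbp1Δ::kanMX6* cells and 0.914 in wild-type cells, beside 0.707 in *dbp1Δ::kanMX6* cells and 0.746 in wild-type cells for all entries, and 37 of them in *dbp1Δ::kanMX6* cells and 31 in wild-type cells lay above the median entry. The ranking was largely kept between genotypes, with r = 0.818 for log2 TE, 0.867 for log2 FP RPKM and 0.933 for log2 mRNA RPKM over the 53 genes. The 5 genes with TE at least 2-fold higher were *MET17*, *LYS1*, *ILV6*, *LYS20* and *MET6*, and the 3 with TE at least 2-fold lower were *SER3*, *ARG3* and *MET16*. Among these 8 genes, TE in *dbp1Δ::kanMX6* cells ran from 0.119 for *ARG3* to 4.11 for *LYS1*, the highest TE of the 53 genes in that genotype.

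**Figure D4:**
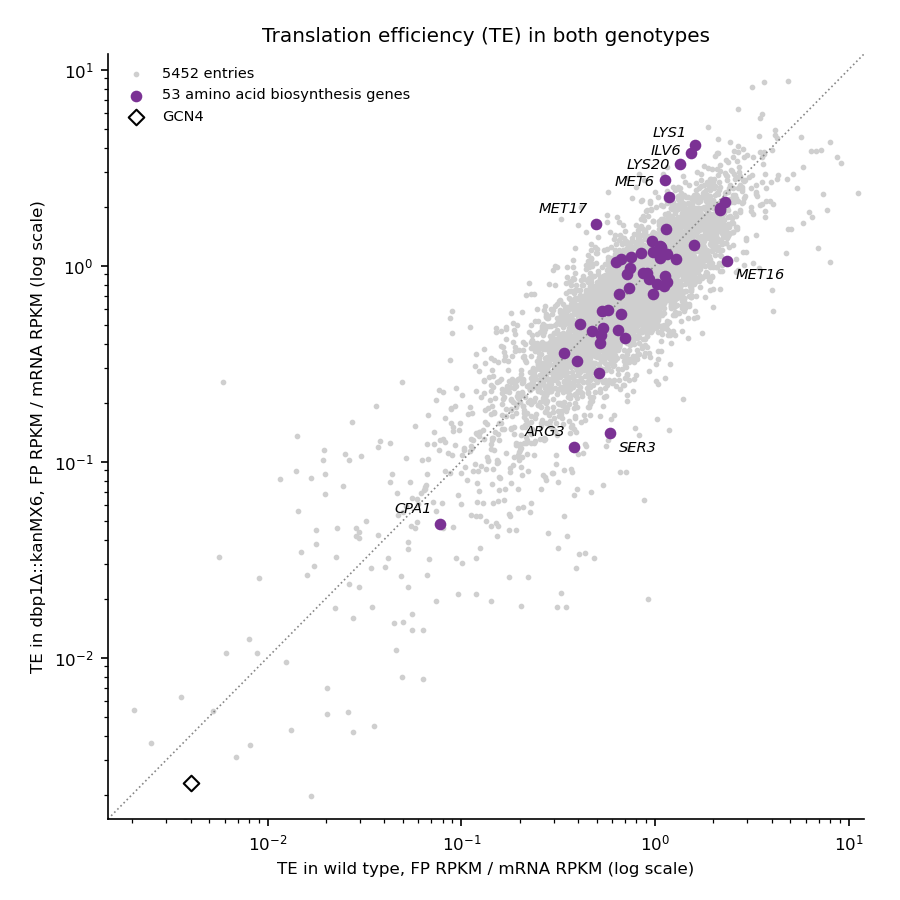
TE in dbp1Δ::kanMX6 cells against TE in wild-type cells on log axes for the 53 genes (purple), 5452 entries (gray; entries beyond the axis limits are not drawn) and *GCN4* (open diamond), with equality dotted. *CPA1*, at 0.0482 in dbp1Δ::kanMX6 cells and 0.0773 in wild-type cells, is the lowest of the 53 genes, and *GCN4* lies far below all of them.

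The 53 genes include 6 pairs of isozymes, and the division of footprints or mRNA within a pair differed between genotypes by more than counting error in each of them except *SER3* and *SER33* footprints, *LYS20* and *LYS21* mRNA, and *ARO3* and *ARO4* mRNA, whose intervals overlapped. *BAT1* (YHR208W) and *BAT2* (YJR148W) encode the mitochondrial and cytosolic branched chain aminotransferases. *BAT1* had 61.7 FP RPKM and 63.3 mRNA RPKM in *dbp1Δ::kanMX6* cells, against 24.4 and 32.7 in wild-type cells, 2.53-fold (2.02 to 3.17) and 1.94-fold (1.52 to 2.47) higher. *BAT2* had 377.9 FP RPKM and 296.3 mRNA RPKM in *dbp1Δ::kanMX6* cells, against 610.1 and 385.3 in wild-type cells, 1.61-fold (1.51 to 1.72) and 1.30-fold (1.20 to 1.41) lower. *BAT2* remained the main form in either genotype, but the *BAT1* share of the pair's footprint reads was 14.6% (Wilson interval 13.0 to 16.4) in *dbp1Δ::kanMX6* cells and 4.03% (3.38 to 4.80) in wild-type cells.

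The alpha-isopropylmalate synthases *LEU4* (YNL104C) and *LEU9* (YOR108W), which commit carbon to leucine, were both higher in footprints but only *LEU9* was higher in mRNA. *LEU9* had 60.9 FP RPKM and 49.4 mRNA RPKM in *dbp1Δ::kanMX6* cells, against 22.9 and 21.4 in wild-type cells, 2.66-fold (2.21 to 3.20) and 2.31-fold (1.83 to 2.96). *LEU4* had 137.9 FP RPKM and 61.9 mRNA RPKM in *dbp1Δ::kanMX6* cells, against 74.6 and 62.8 in wild-type cells, with a TE ratio of 1.88 (1.56 to 2.25). The *LEU4* share of the pair's mRNA reads was 56.2% in *dbp1Δ::kanMX6* cells and 75.1% in wild-type cells, while its share of footprint reads was 69.9% in *dbp1Δ::kanMX6* cells and 76.9% in wild-type cells.

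*LYS21* (YDL131W), the other homocitrate synthase, had 196.3 FP RPKM and 92.8 mRNA RPKM in *dbp1Δ::kanMX6* cells, against 162.3 and 70.8 in wild-type cells. Its footprint ratio of 1.21 (1.10 to 1.33) lay below the median entry, so the higher footprints of this step came with *LYS20*, whose share of the pair was 37.9% (35.3 to 40.5) in *dbp1Δ::kanMX6* cells and 19.8% (17.6 to 22.3) in wild-type cells. An additional entry pools sequence common to both genes. It had 316.5 FP RPKM and 124.0 mRNA RPKM in *dbp1Δ::kanMX6* cells, against 168.9 and 89.1 in wild-type cells, and how reads were divided between the paralogs is not given in the sources used here, so these shares are uncertain.

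The 3 remaining pairs belong to serine, asparagine and aromatic amino acid synthesis. *SER3* held 72.3% of its pair's mRNA reads in *dbp1Δ::kanMX6* cells (70.4 to 74.1) and 51.4% in wild-type cells (48.3 to 54.4), but 31.8% of the footprint reads in *dbp1Δ::kanMX6* cells (27.8 to 36.0) and 35.9% in wild-type cells (33.6 to 38.3). Some mRNA reads of the *SER3* entry may belong to *SRG1*, so its mRNA shares are uncertain. *ASN1* (YPR145W) had 36.5 FP RPKM and 85.3 mRNA RPKM in *dbp1Δ::kanMX6* cells, against 43.8 and 62.7 in wild-type cells, and *ASN2* (YGR124W) had 59.3 and 71.8 against 97.8 and 84.8. TE of both asparagine synthetases was lower in *dbp1Δ::kanMX6* cells, 1.63-fold for *ASN1* (1.30 to 2.05) and 1.40-fold for *ASN2* (1.16 to 1.69). The DAHP synthases *ARO3* (YDR035W) and *ARO4* (YBR249C), inhibited by phenylalanine and by tyrosine, open the aromatic pathway. *ARO3* had 135.7 FP RPKM and 125.5 mRNA RPKM in *dbp1Δ::kanMX6* cells and 121.9 and 94.4 in wild-type cells. *ARO4* had 157.7 and 137.4 in *dbp1Δ::kanMX6* cells against 101.1 and 88.0 in wild-type cells, so that *ARO3* provided 46.2% of the pair's footprint reads in *dbp1Δ::kanMX6* cells (43.3 to 49.2) and 54.7% in wild-type cells (51.6 to 57.7).

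**Figure D5:**
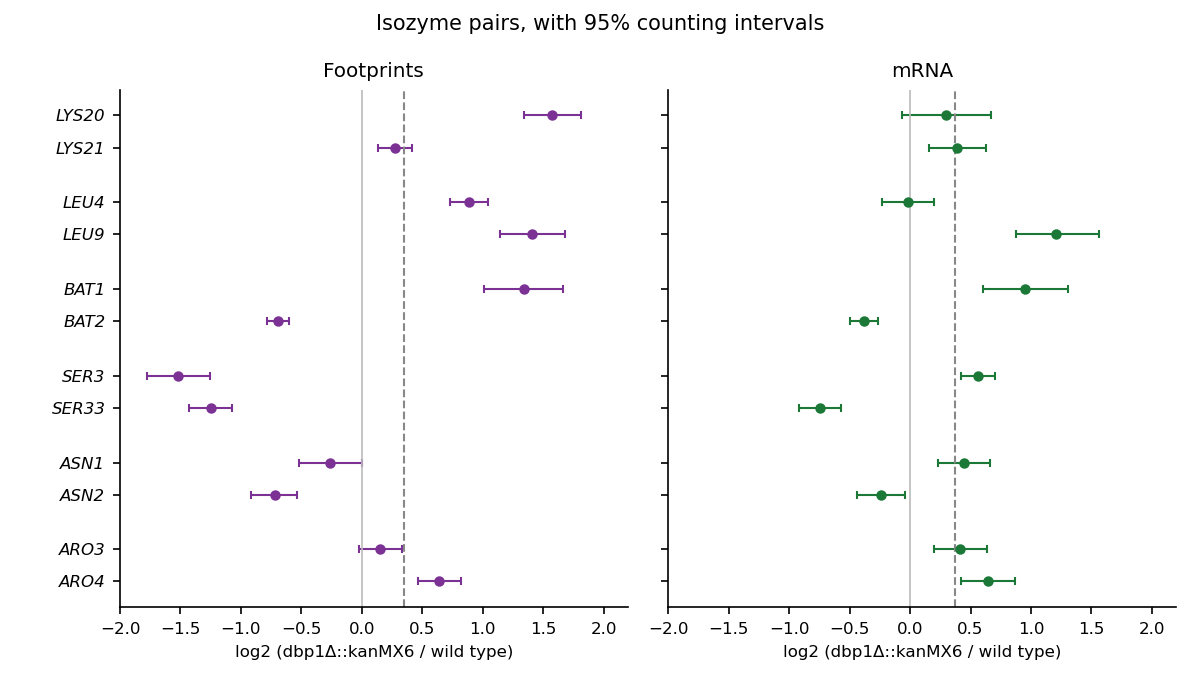
log2 of the dbp1Δ::kanMX6 to wild-type ratio for the 6 pairs of isozymes, footprints left and mRNA right, with points at the ratio and bars for the 95% counting interval; the solid line is no change and the dashed line the median entry. *BAT1* lies above and *BAT2* below no change in both assays, whereas *SER3* and *SER33* are both lower in footprints and part in mRNA.

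*GCN4* (YEL009C), the activator of the general control, was highly abundant as mRNA and almost without footprints on its ORF. It had 7.6 FP RPKM and 3334.0 mRNA RPKM in *dbp1Δ::kanMX6* cells, against 11.2 FP RPKM and 2773.7 mRNA RPKM in wild-type cells. The footprint interval included no difference (ratio 0.679, 0.379 to 1.18), mRNA was 1.20-fold higher (1.16 to 1.24, below the median entry), and TE was 0.00228 in *dbp1Δ::kanMX6* cells and 0.00404 in wild-type cells, a ratio of 0.565 (0.332 to 0.961) that rests on 21 and 39 inferred footprint reads. Across 21 regulators, *GCN4* included, the median log2 change was 0.18 for footprints, 0.45 for mRNA and -0.28 for TE. Only 1 regulator was at least 2-fold higher in footprints, *GAT1*, a GATA factor of nitrogen regulation (145.1 FP RPKM in *dbp1Δ::kanMX6* cells, 62.7 in wild-type cells), and only 1 was at least 2-fold lower, *MET4*, the activator of the sulfur genes (47.0 FP RPKM in *dbp1Δ::kanMX6* cells, 96.3 in wild-type cells). Each is 4.76% of the list, beside 15.1% higher and 8.23% lower of all entries, and relative to the median entry 0 were higher and 3 lower (beside 6.36% and 12.8%). *MET4* mRNA was 47.0 RPKM in *dbp1Δ::kanMX6* cells and 80.0 in wild-type cells. The largest TE decrease among the regulators was that of *BAS1*, an activator of histidine and purine genes, 4.01-fold (2.48 to 6.48). *BAS1* had 3.8 FP RPKM and 48.1 mRNA RPKM in *dbp1Δ::kanMX6* cells, against 6.3 and 19.9 in wild-type cells. Its TE ratio thus rests on 30 and 63 inferred footprint reads and goes with a 2.42-fold higher mRNA.

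Other genes of the same metabolism had a like median change in footprints, but not in mRNA relative to the median entry. Of 35 further biosynthetic genes listed, 33 were found and 30 passed the filter. Their median log2 change was 0.56 for footprints, 0.35 for mRNA and 0.15 for TE. Relative to the median entry these medians were 0.21, -0.02 and 0.22. In footprints, 5 were at least 2-fold higher and 0 lower (16.7% and 0%, beside 15.1% and 8.23% of all entries). The largest difference among them was that of *GDH3* (YAL062W), the second NADP-dependent glutamate dehydrogenase, with 200.2 FP RPKM and 147.5 mRNA RPKM in *dbp1Δ::kanMX6* cells, against 53.7 and 51.6 in wild-type cells, 3.73-fold in footprints (3.27 to 4.27). The lowest footprint ratio was that of *PRO2* in proline synthesis, with 81.0 FP RPKM in *dbp1Δ::kanMX6* cells and 111.9 in wild-type cells.

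Genes that take up, break down or use amino acids were counted in the same way. Among 20 permeases that passed the filter, 2 were at least 2-fold higher and 6 lower in footprints (10% and 30%, beside 15.1% and 8.23% of all entries), with a median log2 change of -0.21. Relative to the median entry, 1 was higher and 8 lower, beside 6.36% and 12.8% of all entries. The extremes were the ammonium permease *MEP3* (19.1 FP RPKM in *dbp1Δ::kanMX6* cells, 2.6 in wild-type cells) and the arginine permease *ALP1* (2.5 FP RPKM in *dbp1Δ::kanMX6* cells, 53.1 in wild-type cells). Of 12 catabolic genes, 5 were at least 2-fold higher and 0 lower in footprints (41.7% and 0%, beside 15.1% and 8.23% of all entries), whereas relative to the median entry 2 were higher and 1 lower (beside 6.36% and 12.8%). Their mRNA was higher for 6 and lower for 6, beside 71.3% of all entries higher, with a median log2 change of -0.14. TE was higher for 11 of the 12, beside 44.8% of all entries. *CHA1*, the serine and threonine deaminase, which is known to be induced by these amino acids, showed the largest difference, with 216.2 FP RPKM and 141.1 mRNA RPKM in *dbp1Δ::kanMX6* cells, against 15 and 14.1 in wild-type cells, 14.4-fold in footprints (11.2 to 18.7). Of 18 cytosolic tRNA synthetases, 0 were at least 2-fold higher and 4 lower in footprints (0% and 22.2%, beside 15.1% and 8.23% of all entries), although their median log2 change, 0.57, matched that of the biosynthetic genes. Lowest was *MES1*, the methionyl-tRNA synthetase, with 5.1 FP RPKM and 199.1 mRNA RPKM in *dbp1Δ::kanMX6* cells, against 20.8 and 118.0 in wild-type cells, and highest was *GRS1*, the glycyl-tRNA synthetase, with 76.3 FP RPKM in *dbp1Δ::kanMX6* cells and 40.0 in wild-type cells.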

How the data were processed

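Reads aligned to an SK1 genome were counted by ORF, and the authors deposited RPKM values, scaled to ORF length and mapped reads, to 1 decimal place. The submitters' processing notes name Bowtie2, CASAVA and bcl2fastq 2.17. The annotation, the use of strand and the treatment of multiply mapping reads are not given in the sources used here. Gene lengths and overlaps came from RefSeq's gene table of assembly R64 (strain S288C), in which 5771 of 6549 entries were found, and its coordinates are not printed because the build differs. No sequences were used here.

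Ratios of *dbp1Δ::kanMX6* to wild type were formed with a pseudocount of 0. Entries needed a mean of 10 RPKM over the 4 libraries and values above 0. Footprint ratios were thus available for 5453 entries, mRNA ratios for 5551 and TE ratios for 5452. A difference of 2-fold was counted in each direction. Reads were inferred from the RPKM steps of ORFs under 500 bp and 20 RPKM. At the chosen depths, 63.1% to 66.3% of such values were whole reads, against 6.98% to 14.8% by chance. Ratio intervals are exact conditional Clopper-Pearson, TE intervals come from the summed inverse reads on the log scale, and read shares have Wilson intervals. All are at 95%, for counting error only, since the reads carry no molecular identifiers and may repeat a molecule. The calculations (Python 3.11.15, pandas 2.3.3, scipy 1.17.1, numpy 2.4.6) were tested on simulated data.

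The genes, lists and pathways were chosen with earlier results of these data known. By the naming rule, values in all 4 libraries are given for the extremes of each pathway in each measure, the isozyme pairs, *GCN4*, and any gene past 2-fold, with extremes of the other lists. *GLN1*, *DBP1* and *MRP51* were added after their values were seen. Alternatives were other pseudocounts, filters, scalings and fold thresholds.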

Additional observations from a re-analysis of the deposited data

How the results depend on the processing

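With changes centred on the median entry, footprints of 5 of the 53 genes were at least 2-fold higher and 6 lower (10 and 3 as reported), mRNA of 0 was higher and of 3 lower (3 and 0), and the median log2 changes were 0.22 for footprints and 0.10 for mRNA (0.57 and 0.47). A trimmed-mean scaling gave 5 and 6, 0 and 3, and medians of 0.22 and 0.11. Centring changed the sign of footprint changes of *LYS12*, *LYS21*, *HOM2*, *ARO3* and *SER1*, of mRNA changes of *ARG1*, *ARG3*, *LYS20*, *ARO1*, *SER1*, *MET3* and *MET6*, and of TE changes of *ARO4* and *SER2*. With a filter at 50 RPKM, which kept 36 of the genes, 6 were higher in footprints, 1 in mRNA and 3 in TE. At a threshold of 1.5-fold, 24 were higher and 6 lower in footprints, 20 higher and 3 lower in mRNA, and 8 higher and 6 lower in TE (5 and 3 as reported). At 4-fold the counts were 1 and 0, 0 and 0, and 0 and 1. Pseudocounts of 0.1 and 1, filters at 1 RPKM or none, and scaling without the 50 highest and the mitochondrially encoded entries kept these counts within 1.5 times. The median wild-type TE of 0.914 was 0.966 with the filter at 50 RPKM. A planned search of promoters for Gcn4 sites was not run, since no promoter sequence was used here. No paired analysis was possible because each genotype had 1 library per assay. Depth limits the least covered gene to 36 reads in a library, and biological spread between cultures is not measured here.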
